A study of Mus musculus with 2 samples.

Results

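Ctla2a and Ctla2b are a pair of neighbouring mouse genes that encode small inhibitors of cysteine proteases. They were followed in single-cell libraries of the cervix, and were found by symbol as 2 of the 31053 genes in the count tables. Cervices of ovariectomised C57BL6/129 females, operated at 7 to 8 weeks of age and left to recover for 2 weeks, were compared over a period of 15 days. Both groups had lost their ovaries, so neither had a natural cycle. The control mice were left untreated. The progesterone mice first had estradiol (E2) injections, 100 µg/day in corn oil on 2 days, meant to bring up the progesterone receptor, and then a 25 mg pellet with a release time of 21 days and about 1 mg/day, taken from the group's name to hold progesterone. The labels list 2 pellet catalogue numbers and do not say which hormone each holds. The cervix was cut below the transition zone and freed of vagina. The effect of progesterone therefore cannot be told apart from that of E2, the injections or the implant. Each group is 1 library of 9 pooled mice, which gives 1 value per group, no test between the groups and no measure of the spread between mice. All intervals in brackets are 95% intervals for counting error. Levels have exact Poisson intervals, shares have exact Clopper-Pearson intervals, and ratios have intervals from the binomial split of the UMIs between the groups. The pair was chosen by its measured UMIs in the cell classes of these libraries, so its levels in each class are a description.

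The Ctla2 proteins resemble the propeptide of cathepsin L, the segment that keeps the proenzyme inactive, but lack the enzyme itself, and they inhibit cathepsin L-like proteases. They were first found in activated T cells and are known from endothelium and from the stroma of the pregnant mouse uterus, where the decidua forms under progesterone. Cysteine cathepsins digest proteins in lysosomes and, when secreted, matrix proteins, and cystatins are their other main inhibitors.

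Ctla2a (ENSMUSG00000044258) lies on GRCm38 chromosome 13, 60934155 to 60936625, and Ctla2b (ENSMUSG00000074874) at 60895350 to 60897447, both protein coding and on the minus strand. The gene Gm49391, a readthrough annotated from 60895350 to 60936571, runs over both. The 8 placental cathepsin genes from Ctsj to Cts3 lie beside them on the same strand. The coding sequences of the pair were identical at 326 of 339 aligned bases (96.2%), and the 250 bases before their starts at 208 of 228 (91.2%). These upstream bases are shown because the pair share them almost whole while their counts differed widely. They are RefSeq sequences of GRCm38.p6, chr13:60936626-60936875 for Ctla2a and chr13:60897448-60897697 for Ctla2b, minus strand, 5′ to 3′. Capitals mark TGTTCT, a half-site of the progesterone and glucocorticoid receptors, and TGACGT, the core of the cAMP response element.
Ctla2a: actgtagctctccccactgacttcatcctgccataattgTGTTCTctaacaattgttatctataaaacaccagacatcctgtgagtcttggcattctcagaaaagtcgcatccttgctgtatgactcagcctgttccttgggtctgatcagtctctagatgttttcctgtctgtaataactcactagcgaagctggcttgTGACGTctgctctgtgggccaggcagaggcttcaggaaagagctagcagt
Ctla2b: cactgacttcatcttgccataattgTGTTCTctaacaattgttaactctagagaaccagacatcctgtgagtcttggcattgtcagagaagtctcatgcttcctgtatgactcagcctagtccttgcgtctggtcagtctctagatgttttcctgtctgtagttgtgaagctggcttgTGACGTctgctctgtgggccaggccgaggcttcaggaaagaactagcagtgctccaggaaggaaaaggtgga

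TGTTCT, searched on both strands, begins 211 bases before the Ctla2a start and 225 before the Ctla2b start, and is found in 16.1% of 32851 promoters of the same length. TGACGT begins 50 and 72 bases before the starts and is found in 6.47% of those promoters. The AP-1 letters TGANTCA occur once in each, as in 6.75% of promoters, and the full palindromic site of the progesterone and glucocorticoid receptors in neither. Estrogen receptor sites were not searched for. These are matches of letters, not measured binding.

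The pair differ more at the 3′ end, where the 10x 3′ kit reads. Over the last 500 bases of the transcripts, 261 of 457 aligned bases were identical (57.1%). None of the 411 windows of 90 bases in the Ctla2a end occur in a Ctla2b or Gm49391 transcript. All of the last 500 bases of Ctla2b lie in exons of Gm49391, and 325 of its 411 windows occur there unchanged. Gm49391 had 0 UMIs in both libraries. A unique molecular identifier (UMI) marks 1 captured transcript, and a read that fits 2 genes is not counted by the software named in the submitters' notes. Ctla2b UMIs can therefore be missing from these tables, and its low counts are uncertain.

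The control library held 4579 analysed cells with a median of 3733 UMIs, and the progesterone library 8541 with a median of 4151. The 2 libraries share 19 barcodes, none of them among the cells singled out below. Cells were clustered without either gene and clusters were named from marker genes as "X-like". In the fibroblast-like cluster the median depth was 962 UMIs in 77 control and 2688.5 in 114 progesterone cells, and in the endothelium-like cluster 1088.5 in 44 and 2051 in 61. Most cells of both libraries were epithelium-like, with keratins.

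Most Ctla2a UMIs were in endothelium-like cells in the control library and in fibroblast-like cells in the progesterone library. The control library had 142 Ctla2a UMIs in 54 cells, or 7.06 CPM [5.95 to 8.32], where CPM is UMIs per 1000000 UMIs of the cells named. The progesterone library had 3147 in 210 cells, or 82.6 CPM [79.7 to 85.5]. Endothelium-like cells held 85.9% of the control UMIs and 9.44% of the progesterone UMIs. Fibroblast-like cells held 0.704% and 83.8%. The last share rests on the clustering: at Leiden resolution 2 it was 7.75%, because most of the cells that carry it were then grouped with smooth muscle-like cells. The highest levels were those of progesterone fibroblast-like cells, then progesterone and control endothelium-like cells, whose intervals overlap, and every other class of at least 20 cells stood at or below 109 CPM.

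**Figure D1:**
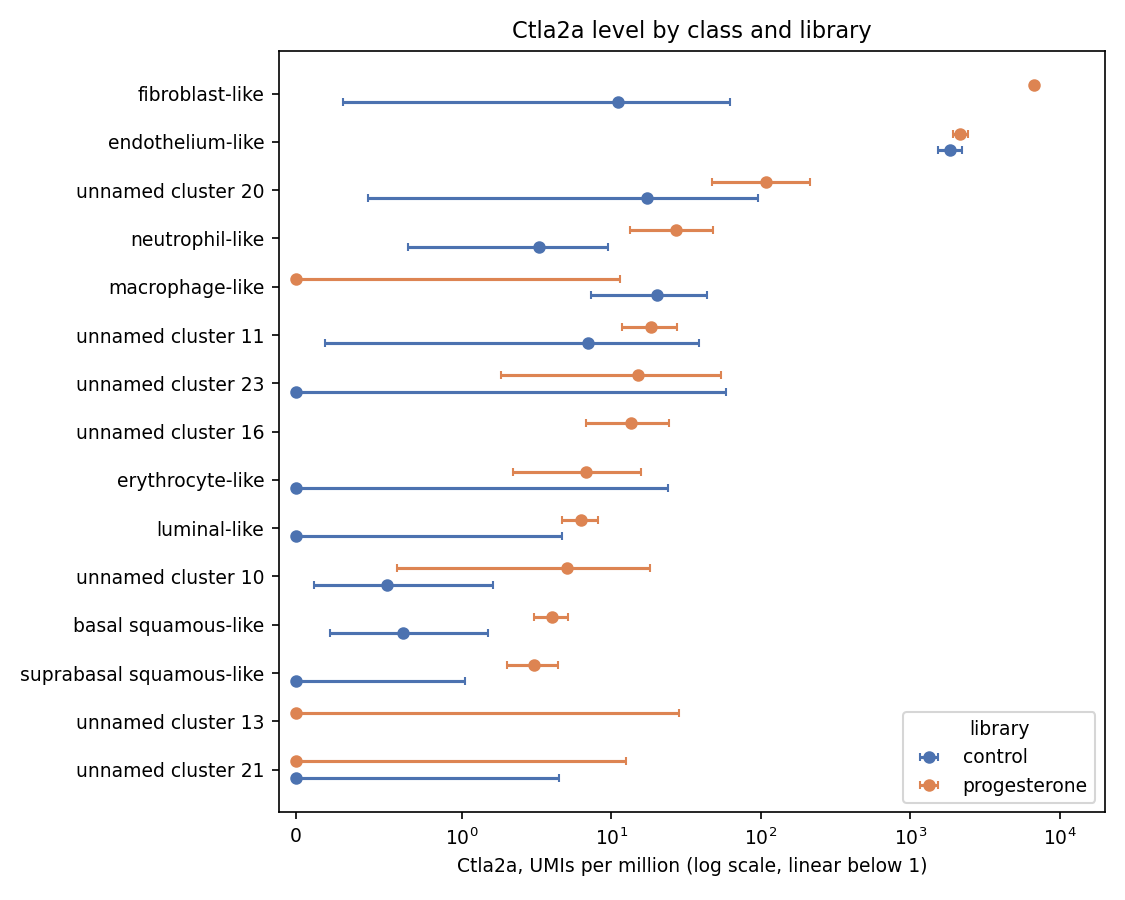
Ctla2a in CPM (log axis, linear below 1) for each class with at least 20 cells in a library, control in blue and progesterone in orange; points are class sums and bars exact Poisson 95% intervals. Endothelium-like cells stand near 2000 in both libraries, whereas fibroblast-like cells stand at 11.2 in the control and 6749 in the progesterone library.

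Control fibroblast-like cells had 1 Ctla2a UMI, or 11.2 CPM [0.283 to 62.2]. Progesterone fibroblast-like cells had 2637, or 6749 CPM [6494 to 7012]. The ratio of progesterone over control was 605 [108 to 23900], 8.66 on the log2 scale with 0.5 added to each sum. With a single control UMI its size is loose. Under a stricter cell filter the control level was 0 CPM. The value there, at least 141, is a bound against the floor put in place of a count of 0. The ratio was 214 without doublet removal, 205 as a mean over cells and 77.3 at the finer Leiden resolution of 2. This was rank 1 of the 3203 genes with at least 20 UMIs in this class. Of those genes 7.15% were at least 2-fold higher and 9.24% at least 2-fold lower in the progesterone library, with a median of −0.16. Ranks 2 to 4 were the haemoglobin genes Hbb-bs, Hba-a1 and Hbb-bt, red cell transcripts that were also higher in the progesterone fibroblast-like cells. With haemoglobin and keratin genes left out of the total, the Ctla2a ratio was 609. With each cell thinned to 1000 UMIs, 22 of 105 progesterone fibroblast-like cells carried Ctla2a, or 21.0% [13.6 to 30], and 0 of 37 control cells, which allows a share of up to 8.11%. Unthinned, the shares were 21.1% and 1.30%. In basal squamous-like cells, taken as the background, thinning left 0.191% of control cells (median 3921.5 UMIs) and 0.418% of progesterone cells (median 4370 UMIs) with Ctla2a.

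Nearly all of this signal came from few cells. Of the 114 progesterone fibroblast-like cells, 90 had 0 Ctla2a UMIs, 4 had 1 or 2, and 20 had between 21 and 375, with a median of 91.5. These 20 cells, called Ctla2a-high here, held 2632 of the 2637 UMIs (99.8%). Any limit from 3 to 21 UMIs picks the same cells, since the lowest cell inside has 21 UMIs and the highest outside has 2. Ctla2a made up between 0.343% and 6.07% of all UMIs in a Ctla2a-high cell, with a median of 1.77%. The level was 21995 CPM [21163 to 22852] in these cells and 18.4 CPM [5.99 to 43.0] in the other 94, against 11.2 CPM in the control. Without the Ctla2a-high cells the ratio between the libraries was 1.65, on 5 and 1 UMIs. The Ctla2a-high cells were 17.5% [11.1 to 25.8] of progesterone fibroblast-like cells, and 0 of 77 control cells reached 10 UMIs, which allows up to 3.90%. Among cells with at least 1000 UMIs these shares were 19.0% [12.0 to 27.9] of 105 and 0 of 37. Whether control cervices lacked such cells, or had them without Ctla2a, cannot be told apart here.

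**Figure D2:**
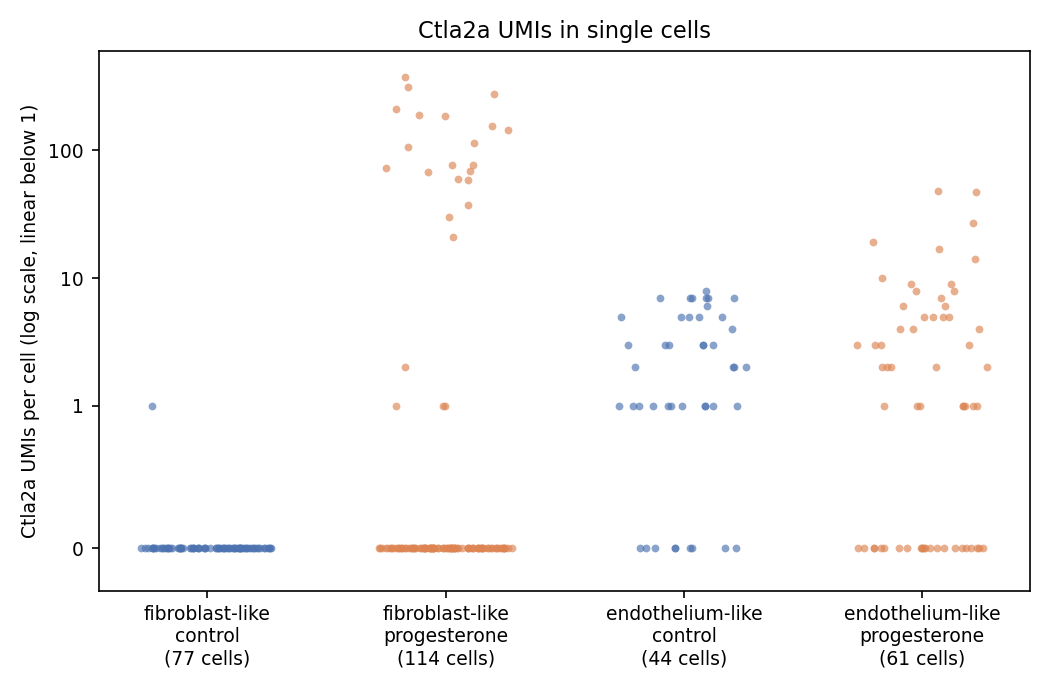
Ctla2a UMIs in each fibroblast-like and endothelium-like cell (log axis, linear below 1), by library; each point is 1 cell, spread sideways for legibility. Among progesterone fibroblast-like cells 20 cells lie between 21 and 375 with no cell between 2 and 21, whereas endothelium-like cells spread without such a gap.

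The Ctla2a-high cells carried the collagens of fibroblasts. Col3a1 was read in 20 of 20, Col1a2 in 19, Col1a1 and Dcn in 18 and Pdgfra in 14. Endothelial markers were at or near 0, with Pecam1 1 UMI, Cdh5 3 and Kdr, Emcn, Plvap and Flt1 0. The pericyte markers Rgs5, Notch3, Kcnj8 and Abcc9 and the muscle myosin Myh11 were at 0, and Acta2, smooth muscle actin, had 2 UMIs. The pericyte marker Pdgfrb had 4 UMIs in 4 cells. Of the other smooth muscle markers, Cnn1 had 0 UMIs, Tagln 11 in 6 cells and Des 31 in 16 cells. At the finer Leiden resolution of 2, however, 16 of the 20 were grouped with the 21 smooth muscle-like cells and 4 stayed with the fibroblasts. Those 16 cells had Col1a1, Col1a2, Col3a1 and Dcn in 16 of 16, 1 UMI of Acta2 and 0 of Myh11, whereas the 21 smooth muscle-like cells had 1196 and 209 UMIs of these. Tagln had 11 UMIs in the 16 cells and 536 in the 21, and Des 28 and 106. All 20 stayed fibroblast-like when the libraries were clustered apart, under a stricter cell filter and without doublet removal, and 18 did under a gate on single-cell markers. The fibroblast and smooth muscle-like cells as one class gave a Ctla2a ratio of 539 at resolution 1 and 535 at resolution 2.

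The Ctla2a-high cells differed in many genes from the other 94 fibroblast-like cells of the same library. These genes were chosen after their values were seen, from cells of 1 pool, and are a description. Hsd11b2, which inactivates glucocorticoids, had 93 UMIs in 16 of the 20 cells and 1 UMI in the other 94, a ratio of 211 [36.9 to 8409] in CPM. Rxfp1, the relaxin receptor, had 38 UMIs in 13 cells and 0 in the others, at least 28.7-fold higher against a floor of 3 counts over the group. The homeobox genes Hoxa10 and Hoxa11, which pattern the female tract, were 31.7-fold [10.1 to 160] and 39.6-fold [10.2 to 340] higher, on 42 against 3 and 35 against 2 UMIs. Hoxd9 had 10 UMIs against 0 and Hoxd11 13 against 4, a ratio of 7.36 [2.27 to 31.0], whereas Hoxa13 stood at 5 against 6 UMIs, or 1.89 [0.456 to 7.42]. The transcription factor Osr2 was 9.49-fold [5.44 to 17.5] and Nr2f2 3.78-fold [2.22 to 6.55] higher.

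The receptors of progesterone, estrogen and glucocorticoids differed less. Pgr, the progesterone receptor, had 20 UMIs in the Ctla2a-high and 12 in the other cells, a ratio of 3.78 [1.76 to 8.47]. Esr1, the estrogen receptor, had 22 in each, a ratio of 2.27 [1.20 to 4.29]. Nr3c1, the glucocorticoid receptor, was 2.90-fold [1.30 to 7.62] lower. The decidual genes Prl8a2 and Igfbp1 had 0 UMIs in both sets of cells, and Bmp2 had 0 and 1. Wnt4, a signal of the decidua, was 7.5-fold [1.18 to 314] lower. Cebpb had 0 against 6 UMIs, too few to show a difference between groups of unlike total UMIs. Foxo1 had 4 against 19, a ratio of 0.477 [0.118 to 1.43]. Ramp1, a partner of the calcitonin gene-related peptide receptor, was 5.34-fold [2.78 to 10.8] higher. Hand2 had 7 UMIs against 0, and Tsc22d3 had 9 against 4, a ratio of 5.10 [1.42 to 22.6]. Zbtb16 had 12 against 13, a ratio of 2.09 [0.872 to 4.97].

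Contractile and matrix genes also set these cells apart. Des, the intermediate filament desmin, was 35.1-fold [8.93 to 303] and Mylk, myosin light chain kinase, 15.4-fold [5.99 to 50.5] higher. Rgs2, a regulator of G protein signalling, was 80.4-fold [21.5 to 677] higher. Col6a4 had 33 UMIs against 0, and Col18a1 and Col15a1, basement membrane collagens, were 11.6-fold [5.37 to 28.7] and 6.15-fold [3.26 to 12.3] higher. Col1a1 was 1.49-fold [1.15 to 1.91] higher and Col3a1 1.18-fold [1.01 to 1.39] lower. The proteoglycans Dcn and Lum were 5.04-fold [4.54 to 5.60] and 3.42-fold [2.56 to 4.66] lower. Genes of adventitial fibroblasts were lower to unlike degrees, with Clec3b 63.0-fold [24.5 to 232], Pi16 26.8-fold [13.5 to 62.5] and Cd55 26.5-fold [11.2 to 82.2]. Ly6a of the same list was 8.51-fold [5.49 to 13.9] and Cd34 only 1.98-fold [1.44 to 2.76] lower. The complement gene C3 was 29.7-fold [16.9 to 57.6] lower.

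**Figure D3:**
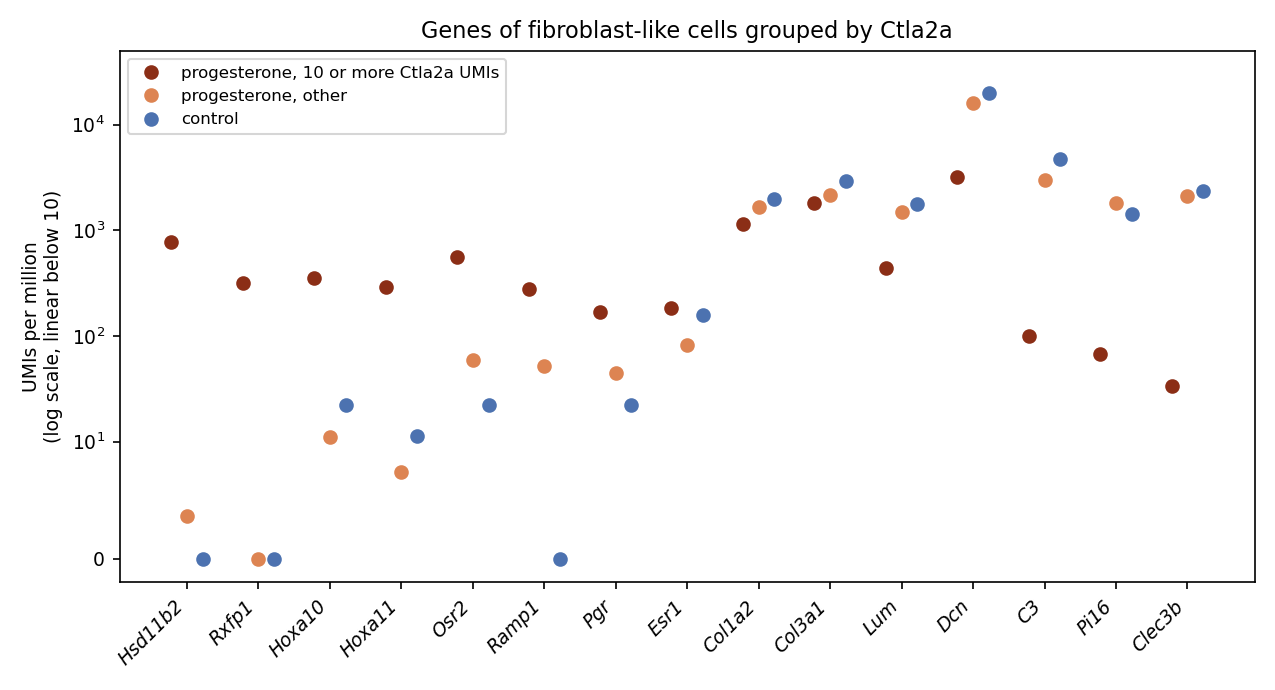
Level in CPM (log axis, linear below 10) of 15 genes in the 20 Ctla2a-high progesterone fibroblast-like cells, the 94 other progesterone cells and the 77 control cells; each point is the sum over a group and has no error bar. The control points lie near the other progesterone cells for Clec3b, Pi16, C3 and Dcn, and the Ctla2a-high cells stand apart for Hsd11b2, Rxfp1, Hoxa10, Hoxa11 and Osr2.

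Depth and RNA from other cells moved with this split. The median was 5979 UMIs in the Ctla2a-high, 2293 in the other progesterone and 962 in the control fibroblast-like cells. Keratin genes stood at 702, 4442 and 2778 CPM, and haemoglobin genes at 493, 8633 and 55.8 CPM. With every cell thinned to 1000 UMIs, the ratio of Ctla2a-high over other cells was 76.5 for Hsd11b2 (211 unthinned), 19.1 for Hoxa10 (31.7), 8.5 for Osr2 (9.49), 0.0210 for Clec3b (0.0159) and 0.232 for Dcn (0.199). The part of keratin and haemoglobin RNA in these differences was not tested.

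The overlap of these genes with Ctla2a was also counted cell by cell. The 5 genes used were picked for being high in the Ctla2a-high cells, so the overlap follows in part from that choice and is a description. Hoxa10, Hoxa11, Rxfp1, Hsd11b2 and Osr2 together had 2 or more UMIs in 20 progesterone fibroblast-like cells. Of these, 18 were Ctla2a-high, and the other 2 had 0 Ctla2a UMIs. The 18 cells with 1 such UMI had 0 Ctla2a UMIs in all. Conversely, 18 of the 20 Ctla2a-high cells had UMIs of at least 2 of the 5 genes. The remaining 2 had 72 and 21 Ctla2a UMIs, 0 UMIs of the 5 genes, 36 and 44 UMIs of Dcn, and 2 UMIs each of Clec3b, which the other 18 lacked. Of the control fibroblast-like cells 72 had 0 and 5 had 1 UMI of the 5 genes, and 0 of 77 had more. Outside the fibroblast-like cells, 1 smooth muscle-like progesterone cell had at least 2 of the 5 genes and 0 Ctla2a UMIs.

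Endothelium-like cells carried Ctla2a in both libraries, at levels that the counting error does not separate. The control cells had 122 UMIs, or 1853 CPM [1539 to 2213], and the progesterone cells 297, or 2163 CPM [1924 to 2424]. The ratio was 1.17 [0.942 to 1.45], 0.22 on the log2 scale. In this class 8.22% of 1508 genes were at least 2-fold higher and 5.70% at least 2-fold lower, with a median of 0.03. A UMI was found in 35 of 44 control and 38 of 61 progesterone cells. After thinning the shares were 70.8% [48.9 to 87.4] of 24 cells and 55.1% [40.2 to 69.3] of 49, with intervals that overlap. Thinned to 2000 UMIs, which keeps fewer cells, the order turned, with 33.3% in the control and 71.9% in the progesterone library. The highest control cell had 8 UMIs, whereas 7 progesterone cells had 10 or more, up to 48. The direction of the ratio is not stable. It was 0.890 without the 2 progesterone cells with 48 and 47 UMIs, 0.871 without cells carrying 2 or more UMIs of Krt5 and Krt14, 0.831 at resolution 2 and 0.713 as a mean over cells. The keratin RNA was mostly in the control cells, with 5757 CPM of Krt14 against 233.

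Within the endothelium, Ctla2a was higher in cells with an Emcn or Aqp1 UMI, and few UMIs were found in cells with lymphatic genes. Cells with UMIs of at least 2 of the lymphatic genes Prox1, Lyve1, Mmrn1 and Flt4 had 1 Ctla2a UMI in 2 control cells and 2 UMIs in 8 progesterone cells, or 134 CPM [16.2 to 482]. The other endothelium-like cells stood at 1891 CPM [1569 to 2260] in the control library, and with progesterone at 2412 CPM [2144 to 2703]. Among these, cells with a UMI of Emcn, endomucin of capillaries and veins, had 2855 CPM [2280 to 3530] and 3255 CPM [2884 to 3660]. Those without had 1053 CPM [737 to 1457] and 437 CPM [250 to 710], at median depths of 771 and 1163 UMIs against 1196 and 2260. Cells with the water channel gene Aqp1 stood at 2374 and 2935 CPM, and those without at 581 and 430 CPM. These splits were chosen after the values were seen.

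**Figure D4:**
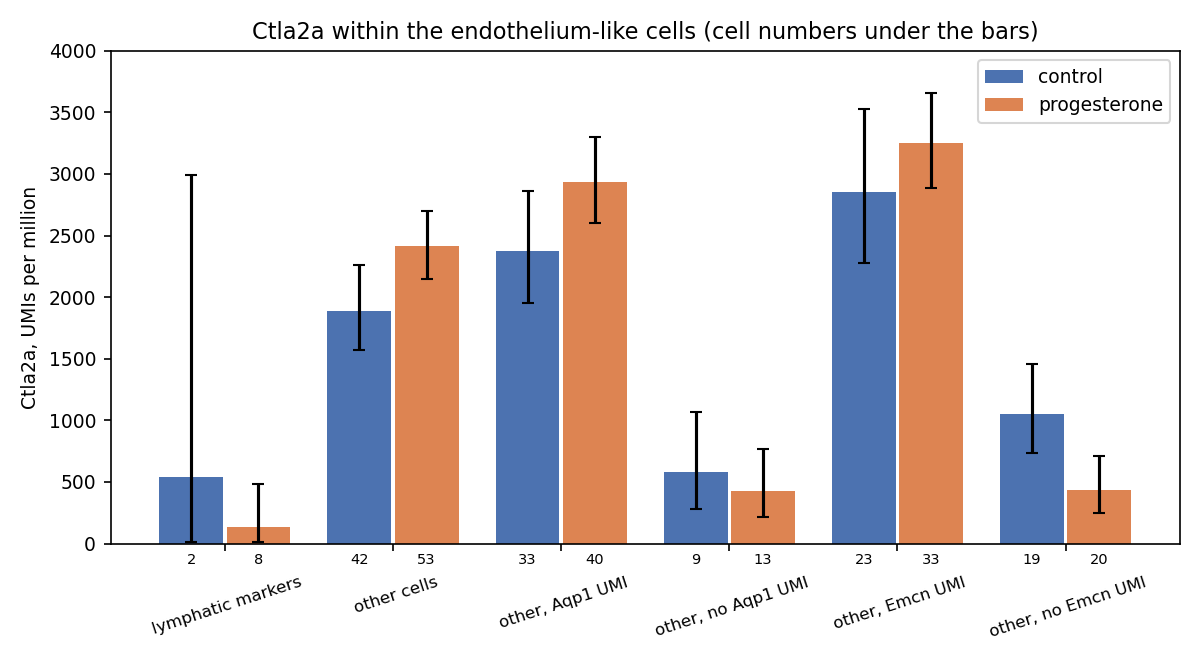
Ctla2a in CPM within the endothelium-like cells, for cells with lymphatic markers and for the others by an Aqp1 or Emcn UMI, control in blue and progesterone in orange; bars are sums over cells, error bars exact Poisson 95% intervals, and small numbers count cells. In both libraries the cells with Aqp1 or Emcn stand above those without.

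Thinned to 1000 UMIs, control carriers of Ctla2a had more of Plvap, a gene of fenestrated vessels, than non-carriers, with a UMI in 70.6% against 14.3% of cells. Vwf, von Willebrand factor, was found in 88.2% against 14.3%. In the progesterone library Clec14a and Mmrn2, which act in vessel growth, were found in 59.3% against 18.2% and 55.6% against 22.7%. Cldn5, a tight junction gene of endothelium, went the other way there, with a UMI in 11.1% of carriers against 40.9%. The whole list of blood endothelium markers stood at 7765 CPM in control carriers against 3429 in non-carriers, but at 6481 against 6636 in the progesterone library. The lymphatic list stood at 58.8 against 714 CPM in the control and 926 against 864 with progesterone. Epithelial markers as a list stood at 471 CPM in control carriers against 13714 in non-carriers, and at 222 against 773 with progesterone. The part of epithelial RNA in these contrasts was not tested. The lymphatic chemokine Ccl21a had 0 against 58 and 43 against 106 thinned UMIs, from few cells, since a UMI was found in 0% against 14.3% and 7.41% against 18.2% of them. Carriers numbered 17 and 27 and non-carriers 7 and 22. No class had the 50 carriers set as the minimum for naming such genes, so these were named after their values were seen.

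Immune and epithelial cells carried little Ctla2a. Neutrophil-like cells of the control library held 3 UMIs, 3.28 CPM [0.676 to 9.57], and those of the progesterone library 11 UMIs, 26.9 CPM [13.5 to 48.2]. Macrophage-like cells had 6 UMIs, or 20.1 CPM [7.38 to 43.8], in the control and 0 in the progesterone library, which allows up to 9.37 CPM. The unnamed cluster 16, whose leading genes include Cd74, C1qa and C1qb and whose best score was for macrophages, was mostly from the progesterone library. It had 11 UMIs in 310 progesterone cells, 13.6 CPM [6.77 to 24.3], with up to 5 in a cell, and 0 in 18 control cells. Another unnamed cluster of T, plasma and dendritic cell genes had 17.2 CPM [0.436 to 96.0] and 109 CPM [47.0 to 214]. The latter came from 8 UMIs in 5 of 35 cells, all 5 with UMIs of T cell receptor or Cd3 genes, which 16 of the 35 cells had. In the control the single carrier of this cluster had 0 such UMIs. Smooth muscle-like cells had 7 UMIs in 19 progesterone cells, 6 of them in 1 cell, and 0 in 2 control cells.

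Levels in the epithelium-like classes were far below those of endothelium-like cells. Basal squamous-like cells had 0.646 CPM [0.210 to 1.51] and 3.99 CPM [3.04 to 5.13], and suprabasal squamous-like cells 0 UMIs, which allows up to 0.856 CPM, and 3.04 CPM [2.00 to 4.42]. Luminal-like cells had 0 UMIs in 241 control cells, which allows up to 3.83 CPM, and 6.24 CPM [4.71 to 8.10] in 1838 progesterone cells. The ratio was 6.17 [2.50 to 19.7] in basal squamous-like cells, rank 124 of 12011 genes. It was at least 3.55 in suprabasal squamous-like cells, rank 55 of 10825, and at least 1.63 in luminal-like cells, rank 93 of 11120. In each of these classes the progesterone library, which holds far more Ctla2a in all, had the higher level. The part of free RNA in this was not tested. The highest luminal-like cells had 10 and 6 UMIs, and 1 cell of the unnamed cluster 11, whose leading genes include the keratins Krt12 and Krt6a, had 6, all from the progesterone library.

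Ctla2b was scarcely counted. It had 0 UMIs in the control library, which allows up to 0.149 CPM, and 7 UMIs in 7 progesterone cells, or 0.184 CPM [0.0739 to 0.379]. Of the 7 cells 3 were endothelium-like, with 5, 47 and 48 Ctla2a UMIs beside the 1 of Ctla2b. One fibroblast-like cell had 21 Ctla2a UMIs, 1 luminal-like cell had 1, and 2 macrophage-like cells had 0. Ctla2b was thus 0.222% [0.0893 to 0.457] of the pair's UMIs in the progesterone library. It was 0.0379% [0.000960 to 0.211] in fibroblast-like and 1.00% [0.207 to 2.89] in endothelium-like cells. These intervals overlap, and the exons shared with Gm49391 limit each value.

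The genes most like Ctla2a across 28 pairs of class and library, by Pearson's r of log2(CPM + 10), were Mustn1 (0.88), Rhoj (0.88), Rtl8a (0.87), Adamts9 and Mylk (0.86 each), Prkg1 and Abcg2 (0.85 each), Tagln and Ebf1 (0.84 each) and Fbln5 (0.83). The points share libraries and depth. Rhoj, a small GTPase of vessel cells, stood at 243 and 255 CPM in control and progesterone endothelium-like and 78.1 and 164 CPM in fibroblast-like cells. By Spearman's correlation 0 of these 10 genes were among the 10 most alike. For Ctla2b, on its 7 UMIs, the 10 were A530017D24Rik (0.82), Gm5141 and Fam149a (0.81 each), 4930426I24Rik and Rtl8b (0.80 each), Zfp975 (0.79), Zdhhc24 (0.76), Pros1 and Zfp968 (0.75 each) and Fam189a2 (0.74).

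The proteases that Ctla2 proteins are held to inhibit were read in the same cells. Cathepsin L (Ctsl) stood at 457 CPM in control and 576 CPM in progesterone fibroblast-like cells, a ratio of 1.26 [0.899 to 1.80]. In endothelium-like cells it stood at 122 and 146 CPM, a ratio of 1.20 [0.506 to 3.15]. Of 11 cysteine cathepsins 6 had at least 20 UMIs in fibroblast-like cells, and 0 were past 2-fold with an interval on one side of 1. Their median log2 ratio was −0.47 against −0.16 for all genes, of which 2.68% were higher and 5.03% lower by this rule. In endothelium-like cells 5 had enough UMIs and 0 were past the limit, with a median of 0.20 against 0.03 and 4.77% and 4.24% of all genes. Within the progesterone fibroblast-like cells Ctsl was 2.17-fold [1.53 to 3.17] lower in the Ctla2a-high cells than in the others, and the inhibitor cystatin C (Cst3) 1.91-fold [1.41 to 2.65] lower. The 8 placental cathepsins that neighbour the pair had 0 UMIs in all analysed cells.

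Other inhibitors of cysteine proteases differed by class. Of the 20 listed, 15 are in the tables. In fibroblast-like cells 2 had enough UMIs, and cystatin B (Cstb) was 9.86-fold [1.68 to 399] higher with progesterone, on 1 and 43 UMIs. Cst3 was the other, at 1038 and 696 CPM. In endothelium-like cells Cst3 stood at 2324 and 3387 CPM, a ratio of 1.46 [1.21 to 1.76]. In basal squamous-like cells 5 of 7 were lower and 0 higher, with Cst6, Csta1, Stfa3, BC100530 and Gm5483 at ratios from 0.0360 to 0.0917, where 6.01% of all genes were lower and 8.03% higher. In suprabasal squamous-like cells 6 of 8 were lower and 0 higher, where 5.38% of all genes were lower and 22.9% higher. Serpinb3a had 28 control and 0 progesterone UMIs there, and Stfa2, Cst6, Stfa3, BC100530 and Csta1 had ratios from 0.0466 to 0.255. Ctsl was 2.15-fold [1.88 to 2.48] higher in suprabasal squamous-like cells and 4.10-fold [2.67 to 6.66] higher in luminal-like cells, where Ctsf and Lgmn were 3.54-fold [1.61 to 9.75] and 2.51-fold [1.13 to 6.94] higher. Csta1 and BC100530 were lower in luminal-like cells, at ratios of 0.00484 and 0.169, where 5.74% of all genes were lower and 7.48% higher. Several classes joined clusters that the libraries filled unevenly. Suprabasal squamous-like cells came from a cluster of 115 control and 1366 progesterone cells and another of 371 and 2. Basal squamous-like clusters included 476 against 19 and 95 against 1528 cells. A luminal-like cluster had 211 against 26 cells, another 5 against 925, and a neutrophil-like cluster 181 against 3. The part of this make-up in the ratios of these classes was not tested.

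In basal squamous-like cells Ctsf was 2.95-fold [2.27 to 3.90] and Ctso 2.22-fold [1.68 to 2.97] higher, and Ctsc had a ratio of 0.485 [0.372 to 0.631]. Suprabasal squamous-like cells had Ctsf 3.37-fold, Ctso 7.60-fold and Lgmn 2.64-fold higher and Ctsc at 0.337. In neutrophil-like cells, where 16.5% of all genes were higher and 30.1% lower, the stefin genes Stfa2l1 and Gm5483 were 3.93-fold [3.29 to 4.71] and 2.71-fold [2.40 to 3.06] higher, with Cstb 2.28-fold, Ctss 2.85-fold and Ctsh 2.24-fold higher. Csta1 had 33 control and 0 progesterone UMIs in these cells. The aspartic protease Ctsd was lower in macrophage-like cells, at a ratio of 0.330 [0.283 to 0.384], where 3.90% of all genes were higher and 6.08% lower. It was also lower in erythrocyte-like cells, at 0.417 [0.277 to 0.636], where 3.29% were higher and 14.6% lower. BC100530 had a ratio of 0.00977 in erythrocyte-like cells. In clusters without a name, Ctsl was 2.58-fold higher in cluster 10 and lower in cluster 11, at 0.180. Lgmn in cluster 10, Cstb and Csta1 in cluster 11 and Cstb in cluster 21 were also higher. Lower there were Csta1 and BC100530 in cluster 10, Ctsb, Ctsz, Ctsd and Cst3 in cluster 11, Ctss, Ctsz, Ctsd and Cst3 in cluster 20, BC100530 in cluster 21 and Ctsd in cluster 23. Of all genes, 5.54% were higher and 1.57% lower in cluster 10, 2.10% and 15.5% in cluster 11, 5.91% and 10.6% in cluster 20, 5.74% and 4.73% in cluster 21, and 2.61% and 2.88% in cluster 23.

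**Figure D5:**
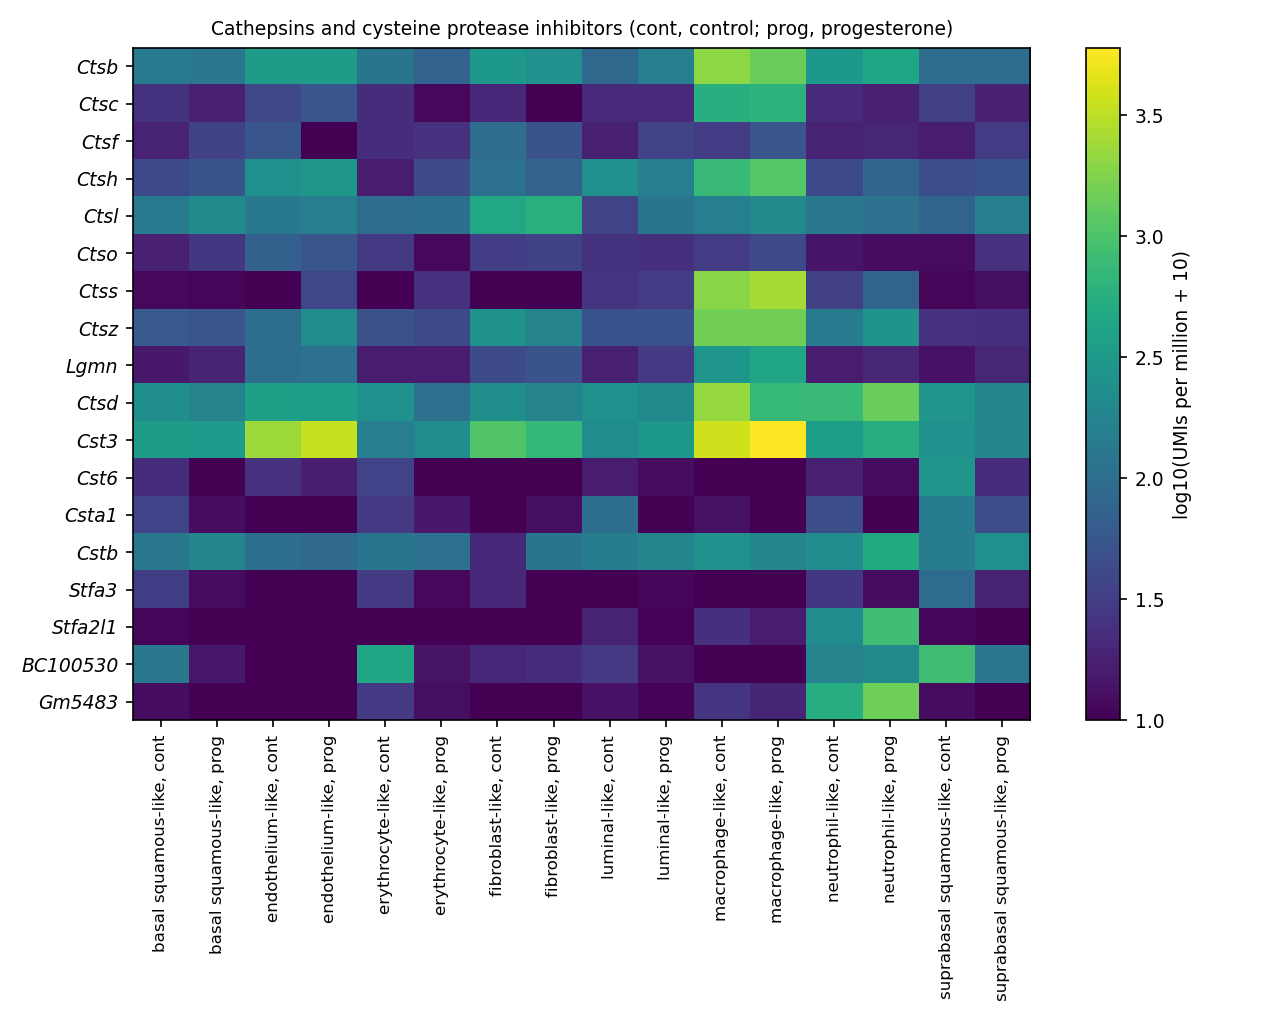
Level of 18 cathepsins and cysteine protease inhibitors with at least 100 UMIs, as log10 of CPM plus 10, by class and library (cont, control; prog, progesterone); lighter is higher. In both libraries Cst3, Ctss and Ctsb stand highest in macrophage-like cells, where Ctss was read at 1937 and 2505 CPM.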

How the data were processed

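Single cells of mouse cervix were captured with the 10x 3′ v3.1 kit after digestion with a cold protease, per the labels' protocols, in 2 libraries. The deposited values are raw counts of UMIs for each gene in each barcode, made by the authors with Cell Ranger 3.0.2 against mm10, per the submitters' processing notes; the annotation is not given in the sources used here. Gene models are those of GENCODE M21. Barcodes with under 200 genes or over 20% mitochondrial UMIs were left out (608 control, 1632 progesterone). The barcodes with the highest Scrublet doublet scores were also left out (181 and 680). Their number was set beforehand from the library size, at 0.8% per 1000 cells. Cells were clustered with scanpy 1.11.5 (2000 variable genes, 30 components, 15 neighbours, Leiden resolution 1) without Ctla2a, Ctla2b, protease, inhibitor and mitochondrial genes. A cluster was named when its marker score was at least 0.75, led by 0.5 and rested on 3 detected markers. Its 10 leading genes also had to hold no more markers of any other type than of its own. Clusters of low depth with no own marker among these genes stayed unnamed. These limits were set after the clusters were seen. The UMIs of a class in a library were added up and given as CPM. Shares were also taken after thinning cells to 1000 UMIs, which left out shallower cells. A count of 0 was given a floor of 3 counts. The ratio and interval steps were tested on simulated Poisson sums. These sums had no spread between cells, so the test does not cover UMIs gathered in few cells. The genes and lists were chosen with earlier results of these data known. Named were the pair, listed proteases and inhibitors with at least 20 UMIs in a class past 2-fold with an interval on one side of 1, and the 10 genes most like each member; other genes were named after their values were seen. Tools were Python 3.11.15, numpy 2.4.6, scipy 1.17.1, pandas 2.3.3 and Biopython 1.88. Alternatives covered filters, clustering, thinning, scaling and left-out cells.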

Additional observations from a re-analysis of the deposited data

Results flagged for a closer look

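Ctla2a was also found in barcodes left out by the filters, which no comparison used. In the progesterone library 2312 such barcodes had 121 UMIs, or 18 CPM [15.0 to 21.5], against 7.13 CPM [3.56 to 12.8] in 789 control barcodes with 11 UMIs. Of the 121 UMIs 71 were in 17 barcodes left out as doublets.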

How the results depend on the processing

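No paired analysis was possible because each group is 1 library. Of 134 recomputed values 97 stayed within their counting interval or within 1.5 times the count, and 37 moved. Changes of direction were not counted, and the endothelial ratio fell below 1 under the settings named below. At Leiden resolution 2 progesterone fibroblast-like cells had 862 CPM of Ctla2a, 4 Ctla2a-high cells, a thinned share of 6.67%, 7.75% of the library's Ctla2a and a ratio of 77.3, since 16 Ctla2a-high cells were grouped with smooth muscle-like cells. Endothelium-like cells then had 1474 CPM and a ratio of 0.831. With the stricter cell filter control fibroblast-like cells had 0 CPM and 0% of the library's Ctla2a, the progesterone ones 86.0%, control endothelium-like cells 2235 CPM and progesterone ones a thinned share of 69.6%. Without doublet removal the progesterone levels were 5739 CPM in fibroblast-like and 1789 CPM in endothelium-like cells, which held 10.5% of Ctla2a. With libraries clustered apart the fibroblast level was 7081 CPM. Under the marker gate fibroblasts held 78.2% of progesterone and endothelium 77.5% of control Ctla2a. Thinned to 2000 UMIs, endothelial shares were 33.3% in the control and 71.9% in the progesterone library, and the Plvap ratio of carriers over other endothelium-like cells, both libraries pooled, was 9.08 against 3.07 at 1000 UMIs. The fibroblast ratio was 1.65 without Ctla2a-high cells. The endothelial ratio was 0.713 as a mean over cells, 0.871 without keratin-carrying cells and 0.890 without the 2 highest cells. Genes past 2-fold, 229 higher and 296 lower in fibroblast-like cells, were 1489 and 2925 with no count minimum and 16 and 18 with the interval past 2-fold. In endothelium-like cells 124 and 86 became 1924 and 2884, and 7 and 21. Spearman's correlation shared 0 of 10 genes. Apart from these settings the causes were not tested. Settings that drop single cells, merge classes or rescale were chosen after seeing the data. With 44 to 114 cells per class, absence of a gene in a cell is not shown.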
